A study of Homo sapiens with 12 samples.

Results

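The 42 collagen, laminin and integrin genes of the count table were followed in MDA-MB-231-ERβ cells, a triple negative breast cancer (TNBC) line that makes full length ERβ from a transgene when doxycycline (dox) is added. Members were chosen by gene symbol alone, and they comprise 22 collagen chains, 8 laminin chains and 12 integrin subunits of the 12451 genes in the table. Cells were treated with vehicle (ethanol) or 1 nM estradiol (E2) for 5 days, with TNFα (20 ng/ml) present during the last 3 h in the TNFα and E2+ TNFα groups. Dox was given in all 4 groups, although the sample labels of the E2+ TNFα group do not name it and it is taken there from the study's methods. Each group had 3 libraries, and since no source says that these came from separate passages, p-values measure the spread between these libraries only. All cells belong to 1 engineered line in which the receptor is driven by dox, so a parental line or endogenous receptor levels are not represented.

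Collagens are triple helical proteins made of 3 chains, and they form fibrils (types I and V), the basement membrane network (type IV), anchoring fibrils (type VII), beaded filaments (type VI) or transmembrane links (types XIII and XVII). Laminins are heterotrimers of an α, a β and a γ chain that organize the basement membrane. Those with the chains LAMA3, LAMB3 or LAMA5 are typical of epithelia. Integrins are αβ heterodimers that bind these ligands and couple them to the cytoskeleton. Subunit β1 (ITGB1) pairs with α1, α2, α3, α5, α6 and αV among the members, β4 (ITGB4) with α6, and β3 and β5 with αV.

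The libraries held 7.65 M to 39.9 M assigned reads (M, mega), with the fewest in the E2 group. The vehicle libraries stood apart from the other 9 on the first principal component (68.7% of variance), and differences from vehicle followed the GC content of exons over all tested genes (Spearman's rho 0.66, 0.71 and 0.67 for E2, TNFα and E2+ TNFα). The relation was weaker among the 36 tested members (rho 0.45, 0.42 and 0.45), and over all genes it was -0.21 between E2+ TNFα and TNFα and -0.33 between E2+ TNFα and E2. How much of a change relative to vehicle goes with treatment, and how much with the library, cannot be told apart for genes that move with GC content, so detrended values, from a fit in which each library's trends with exon GC content and gene length had been taken out, are given where they differ. ESR2, the gene of ERβ, was at 518 to 562 CPM with vehicle, 225 to 281 with TNFα, 249 to 299 with E2 and 417 to 461 with E2+ TNFα. VIM (1027 to 1817 CPM) and CD44 (698 to 1683 CPM), high in this mesenchymal-like line, were abundant in every library. CDH1, the epithelial cadherin that the line largely lacks, was at 1.74 to 4.10 CPM without E2 and 29.9 to 49.9 CPM in the 6 libraries with E2. The epithelial marker EPCAM (10.2 to 11.97 CPM with vehicle, 6.89 to 10.5 with TNFα, 5.36 to 11.7 with E2 and 9.96 to 16.5 with E2+ TNFα) had no such rise. Nor had ERBB2, also read as a marker of the line (108 to 124, 100.4 to 116, 79.5 to 87.3 and 83.7 to 112 CPM in the same order). Of 5 fibroblast markers, 2 were analysed, LUM with at most 11 reads in any library and PDGFRB, and their summed level was 11.6 to 12.1 CPM with vehicle, 18.0 to 19.6 with TNFα, 2.35 to 3.40 with E2 and 5.36 to 5.69 with E2+ TNFα. Their part in the results was not tested.

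Together the 42 genes took 0.331% to 0.588% of the assigned reads. In reads per kilobase of exon and M reads (RPKM), the most abundant members by their median over the 12 libraries included ITGA3 (173 RPKM), LAMB3 (103 RPKM), ITGA5 (54.4 RPKM), COL8A1 (53.4 RPKM) and ITGB5 (45.1 RPKM). COL5A1 (30.8 RPKM), LAMC1 (28.1 RPKM) and COL4A2 (23.0 RPKM) were also among the 3 highest of their families. The fibrillar collagen I chains were scarce, with COL1A1 at 0.540 to 2.49 RPKM and COL1A2 at no more than 0.976 RPKM. Of the 42, 36 reached an RPKM of 1 in at least 3 libraries and were tested (17 collagens, 8 laminins and 11 integrins). A member that passed this filter through 1 group alone had to differ between groups, which holds for COL15A1 (vehicle), ITGA1 (vehicle) and LAMA4 (TNFα). ITGB2 reached it in 6 libraries, all of them with E2, and was at no more than 0.968 RPKM without E2. COL1A1 reached it in 5 libraries and in fewer than 3 outside vehicle. Tests of these members between such groups are not independent of the filter.

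The question of what liganded ERβ does in the presence of TNFα is addressed by E2+ TNFα relative to TNFα, a comparison without the vehicle libraries. A gene is called here when its log2 fold change is at least 1.5 in size with p under 0.05 and an adjusted p of at most 0.1 in edgeR's quasi-likelihood test. COL17A1, ITGB2 and COL5A1 were among the members that rose, and LAMA4 and COL8A1 fell. In all, 4 members of 36 were called higher and 2 lower, where 3.55% and 2.01% of all 11303 tested genes were called. By the adjusted p alone, whatever the size, 22 members differed (12 higher and 10 lower), where 45.3% of all genes did. The median log2 fold change was 0.12 over the tested members and 0.04 over all tested genes. On hg38 the called collagen genes are COL17A1 at chr10:104031288-104085880 (minus strand, 56 exons), COL5A1 at chr9:134641805-134844843 (plus strand, 67 exons) and COL8A1 at chr3:99638596-99796733 (plus strand, 5 exons). Further called genes are LAMA4 at chr6:112107931-112254722 (minus strand, 39 exons) and ITGB2 at chr21:44885949-44928873 (minus strand, 17 exons), with counts summed over the exons of each gene. Of the families, 3 of 17 collagens and 1 of 11 integrins were called.

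**Figure D1:**
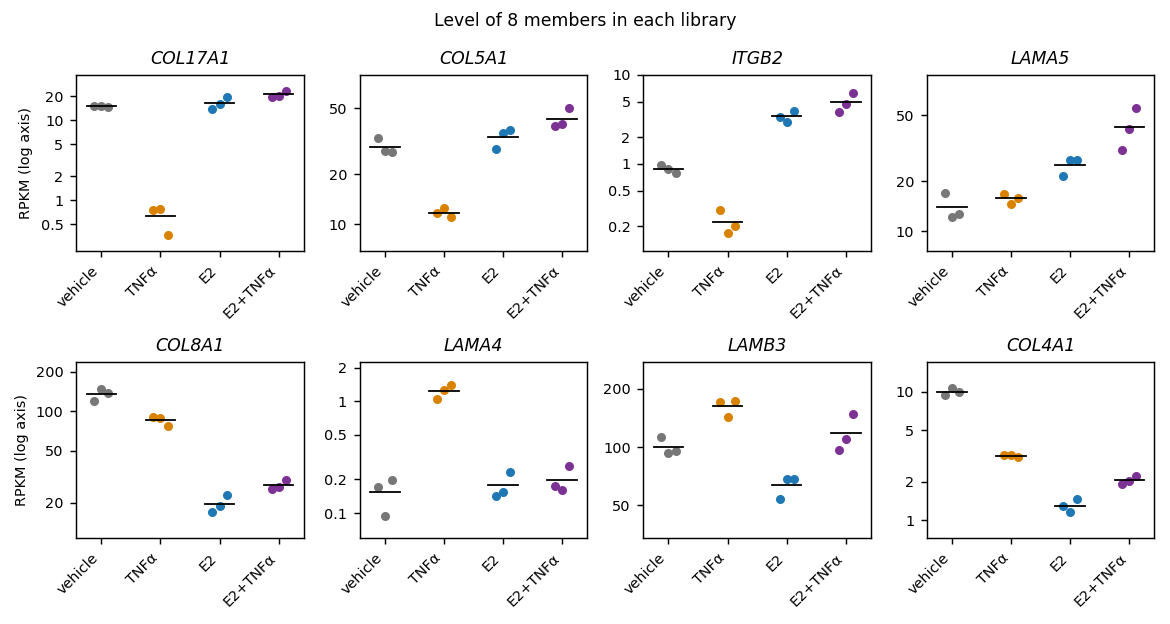
RPKM (log axis, its range set for each gene) of 8 members in each of the 12 libraries by group, with the mean of each group as a line. COL17A1, COL5A1 and ITGB2 were lowest in the 3 TNFα libraries, and LAMA4 was highest there.

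COL17A1, the transmembrane collagen of hemidesmosomes, was measured at 0.742, 0.773 and 0.366 RPKM in the TNFα libraries and at 19.9, 20.2 and 23.5 RPKM in the E2+ TNFα libraries. With vehicle it was at 15.3, 15.3 and 14.7 RPKM, and with E2 at 13.7, 16.1 and 19.5 RPKM. The TNFα libraries thus lay far below the other 9, of which those with E2+ TNFα were highest. The log2 fold change of E2+ TNFα relative to TNFα was 5.09 ± 0.23 (SE, adjusted p = 2.8e-10, edgeR). In bulk RNA, fewer cells that express a gene and less RNA in each cell cannot be told apart, here and for the other members.

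COL5A1, a chain of the fibril-nucleating collagen V, was at 11.7, 12.6 and 11.04 RPKM with TNFα and at 38.8, 40.0 and 49.9 RPKM with E2+ TNFα. Its levels with vehicle (33.2, 27.6 and 27.4 RPKM) and E2 (28.4, 35.7 and 36.9 RPKM) overlapped each other and lay above all TNFα libraries. The change relative to TNFα was 1.91 ± 0.16 on the log2 scale (adjusted p = 2.3e-07, edgeR). COL8A1, a short-chain network collagen of vessel walls and eye membranes, went the other way, with 90.9, 89.4 and 77.2 RPKM with TNFα and 25.3, 26.5 and 29.7 RPKM with E2+ TNFα (log2 fold change -1.62 ± 0.14, adjusted p = 4.8e-07, edgeR). It was at 119, 149 and 137 RPKM with vehicle and 17.1, 18.9 and 23.0 RPKM with E2. COL8A1 was therefore lower in every library with E2 than in every library without it.

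Among laminins, LAMA4, an α chain typical of vessels and mesenchyme, was at 1.05, 1.25 and 1.41 RPKM with TNFα and between 0.0950 and 0.262 RPKM in the other 9 libraries, with a log2 fold change of -2.56 ± 0.31 for E2+ TNFα relative to TNFα (adjusted p = 1.2e-05, edgeR). These are low levels, from 208 to 287 reads with TNFα and 9 to 73 reads elsewhere, and LAMA4 was tested only because of its TNFα libraries. LAMA5, the α chain of epithelial laminin-511 and laminin-521, was at 16.8, 14.6 and 15.9 RPKM with TNFα and 31.1, 41.1 and 54.9 RPKM with E2+ TNFα. Its log2 fold change of 1.47 ± 0.20 (adjusted p = 4.6e-05, edgeR) lay just under the size threshold, which it passed at 1.65 without the first E2+ TNFα library, 1.55 without the second, and 1.52 without the first TNFα library.

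Among integrins, only ITGB2 was called. This β2 subunit is best known from leukocytes, and it was at 0.303, 0.168 and 0.199 RPKM with TNFα and at 3.88, 4.75 and 6.31 RPKM with E2+ TNFα (log2 fold change 4.51 ± 0.29, adjusted p = 1.2e-08, edgeR). It was at 0.968, 0.875 and 0.792 RPKM with vehicle and 3.41, 2.93 and 3.98 RPKM with E2, so the 6 libraries with E2 were all above the 6 without. ITGB2 passed the filter through the libraries with E2 alone, so a difference of this kind was built into its testing. The leukocyte marker CD14 was at 0.643 to 1.92 CPM and CD68, which many cancer lines also express, at 77.4 to 110 CPM, while PTPRC and CD3E were not analysed here. No α subunit that pairs with β2 is among the members. Other integrin subunits changed by less, and among those with an adjusted p of 0.1 or less the values ran from -1.12 for ITGA2, a collagen receptor subunit, to 0.85 for ITGAV.

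**Figure D2:**
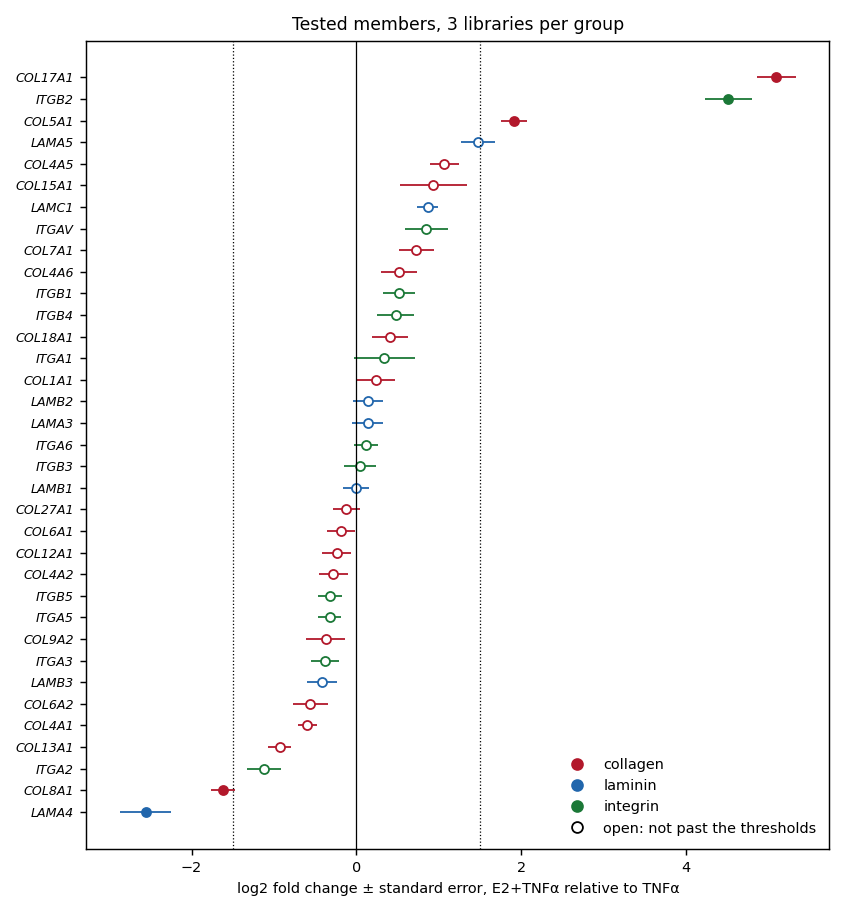
log2 fold change of E2+ TNFα relative to TNFα with its standard error for 35 of the 36 tested members, colored by family, with dotted lines at the size threshold of 1.5. The filled points are called genes, and LAMA5 is the open point nearest to the threshold.

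The promoters of some of the named members are shown to let their sequences be compared, from RefSeq on GRCh38.p14, whose promoter table held 32 of the 42 members. LAMA3 and COL7A1 were called only in comparisons that contain vehicle. Both hold a motif match, and the only other member with a match, ITGA5, is not shown. Each is the 250 bases before the RefSeq start of the gene on its own strand, except for COL4A1 and COL4A2, which are transcribed away from each other from starts 126 bases apart and share the 100 bases shown. For LAMA3, the RefSeq start lies inside the span that the count table gives for the gene. Capitals mark matches to AP-1 (TGANTCA, in LAMA3) or NFκB (GGGANTTTCC or its reverse complement, in COL7A1), searched on both strands.
COL17A1 at chr10:104085881-104086130, minus strand: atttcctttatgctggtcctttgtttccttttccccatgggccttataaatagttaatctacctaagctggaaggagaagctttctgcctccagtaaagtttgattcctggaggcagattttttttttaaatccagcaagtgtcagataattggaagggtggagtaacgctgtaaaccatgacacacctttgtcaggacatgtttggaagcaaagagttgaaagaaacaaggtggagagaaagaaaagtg
COL5A1 at chr9:134641553-134641802, plus strand: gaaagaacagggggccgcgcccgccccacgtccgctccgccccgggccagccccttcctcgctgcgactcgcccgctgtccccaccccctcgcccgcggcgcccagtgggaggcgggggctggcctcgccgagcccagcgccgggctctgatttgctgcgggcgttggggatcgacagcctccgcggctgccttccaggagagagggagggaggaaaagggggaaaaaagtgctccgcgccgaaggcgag
LAMA3 at chr18:23872770-23873019, plus strand: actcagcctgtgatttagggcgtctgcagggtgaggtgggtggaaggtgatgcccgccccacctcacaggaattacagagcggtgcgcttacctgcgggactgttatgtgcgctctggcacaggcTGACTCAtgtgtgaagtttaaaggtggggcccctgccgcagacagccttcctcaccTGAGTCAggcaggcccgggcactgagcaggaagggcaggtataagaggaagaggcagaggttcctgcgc
COL7A1 at chr3:48595330-48595579, minus strand: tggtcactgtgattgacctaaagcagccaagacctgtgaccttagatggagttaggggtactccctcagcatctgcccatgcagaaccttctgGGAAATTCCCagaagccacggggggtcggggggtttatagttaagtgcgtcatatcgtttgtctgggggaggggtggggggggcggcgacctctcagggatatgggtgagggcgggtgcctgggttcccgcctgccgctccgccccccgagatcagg
COL4A1 and COL4A2 at chr13:110307158-110307257, plus strand: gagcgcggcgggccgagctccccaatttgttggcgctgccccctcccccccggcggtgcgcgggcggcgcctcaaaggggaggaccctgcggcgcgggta

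The promoter of COL17A1 was the poorest in G and C of the sequences shown (40.4%), against 60.4% for LAMA3, 60.8% for COL7A1, 74% for COL5A1 and 78% for the stretch between the collagen IV genes. In the window from 250 bases before to 50 after each start, LAMA3 held AP-1 letters from -125 to -119 and from -69 to -63, the start counted as 0, and ITGA5, the fibronectin receptor subunit, held them from -6 to 0. AP-1 was thus found in 2 of 32 members (6.25%) and in 7.76% of the 27305 promoters of the table. The NFκB letters were found in COL7A1 alone (3.125% of 32, against 0.579% of all), from -157 to -148. The palindromic estrogen response element (GGTCA, then 3 bases of any kind, then TGACC) was in none of the 32 promoters and in 0.0659% of all. Letters in these short windows describe the sequence only.

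In the absence of TNFα, more members were lower than higher with E2 relative to vehicle. In this comparison 2 members were called higher and 12 lower, where 9.87% of all tested genes were called higher and 20.6% lower, and 29 members differed at any size (7 higher and 22 lower) where 81.8% of all genes did. The median log2 fold change was -0.87 over the members and -0.02 over all tested genes. Of 17 tested collagens 6 were lower and none higher, and of 11 integrins 5 were lower and 1 higher. Detrending kept 8 of these 14 calls, COL4A1, COL4A2, COL8A1, COL13A1, COL15A1, ITGB3 and ITGB2 among them, and added COL1A1, COL27A1, COL6A2 and COL7A1.

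ITGB2 rose by 2.32 ± 0.25 on the log2 scale with E2 (adjusted p = 7.3e-07, edgeR). ITGB2 passed the filter through libraries with E2 alone and COL15A1, given below, through vehicle alone, so neither test is independent of it. LAMA5 was higher by 1.21 ± 0.20 (adjusted p = 6.5e-05, edgeR), under the size threshold. The collagen IV chains of the basement membrane were lower, with COL4A1 at 9.44, 10.6 and 9.84 RPKM with vehicle and 1.28, 1.16 and 1.47 RPKM with E2 (log2 fold change -2.58 ± 0.13, adjusted p = 3.7e-10, edgeR). Its partner chain COL4A2 was at 55.7, 48.6 and 48.4 RPKM with vehicle and 11.3, 14.8 and 15.1 RPKM with E2 (-1.53 ± 0.18, adjusted p = 2.0e-06, edgeR). COL8A1 fell by 2.42 ± 0.15 on the log2 scale, and COL15A1, a basement membrane associated collagen, went from 1.81, 1.85 and 1.67 RPKM to 0.211, 0.160 and 0.251 RPKM.

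Of the 5 integrins called lower than vehicle, 4 have exons of low GC content. ITGB1, the common β subunit, was at 132, 178 and 168 RPKM with vehicle, 20.6, 24.7 and 22.1 RPKM with TNFα, 21.1, 19.6 and 27.3 RPKM with E2 and 33.7, 42.5 and 19.2 RPKM with E2+ TNFα. ITGAV was at 9.80, 18.9 and 16.1 RPKM with vehicle and 2.24, 2.09 and 3.26 RPKM with E2. The log2 fold changes were -2.46 ± 0.21 for ITGB1 (adjusted p = 5.8e-08, edgeR) and -2.21 ± 0.27 for ITGAV (adjusted p = 2.3e-06, edgeR). ITGA1, ITGA2, ITGA6, ITGAV and ITGB1 are the 5 tested members with an exon GC content under 45% (38.7% to 42.5%), and all 5 were lower than vehicle in each of the 3 treated groups. Detrending turned ITGA1 from -1.86 to 0.15, ITGA2 from -1.95 to 0.17, ITGA6 from -1.21 to 0.31 and ITGAV from -2.21 to 0.12 for E2, and left ITGB1 at -1.04. ITGB3, with an exon GC content of 50.1%, was at 4.63, 4.62 and 4.65 RPKM with vehicle and 1.15, 0.961 and 1.05 RPKM with E2, and its change of -1.77 ± 0.20 (adjusted p = 1.2e-06, edgeR) was -1.82 when detrended. A processed pseudogene of ITGB1 exists, and ITGA1 overlaps PELO on the same strand, so reads of ITGB1 and ITGA1 may be split or shared.

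**Figure D3:**
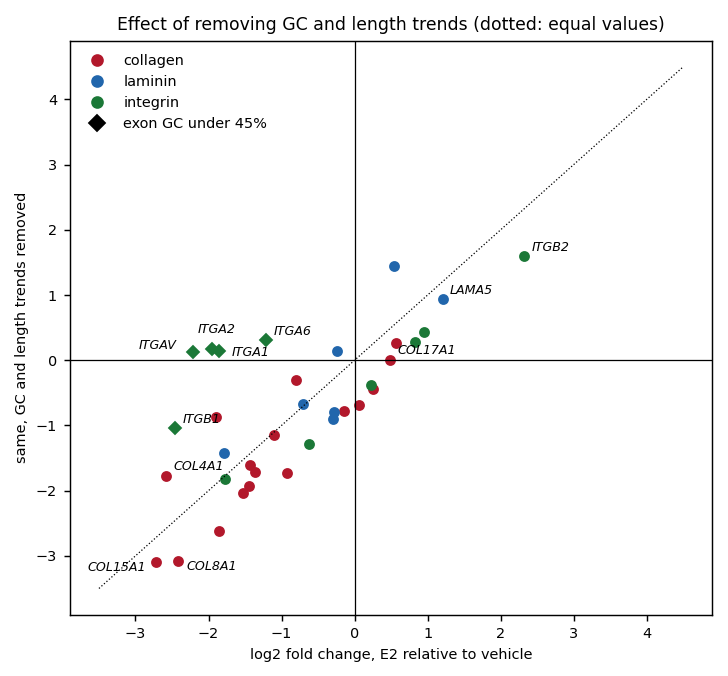
log2 fold change of E2 relative to vehicle for 35 of the 36 tested members (x axis) and the same when detrended (y axis), with diamonds for the 5 members with an exon GC content under 45%. ITGA1, ITGA2, ITGA6 and ITGAV moved from below -1.2 to slightly above 0, while ITGB2 stayed above 1.5.

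The E2 effect was measured without TNFα and with it in groups that share no library. The sign was the same for 17 of 36 members, and 3 were called in both with the same direction, among them ITGB2 (2.32 and 4.51) and COL8A1 (-2.42 and -1.62). ITGB2 passed the filter through the libraries with E2 alone, so a rise in both was built into its testing. The same counts over all tested genes were not computed, so whether members differ from other genes in these counts was not tested. COL17A1 (0.48 and 5.09) and COL5A1 (0.56 and 1.91) were higher by far more when TNFα was present.

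**Figure D4:**
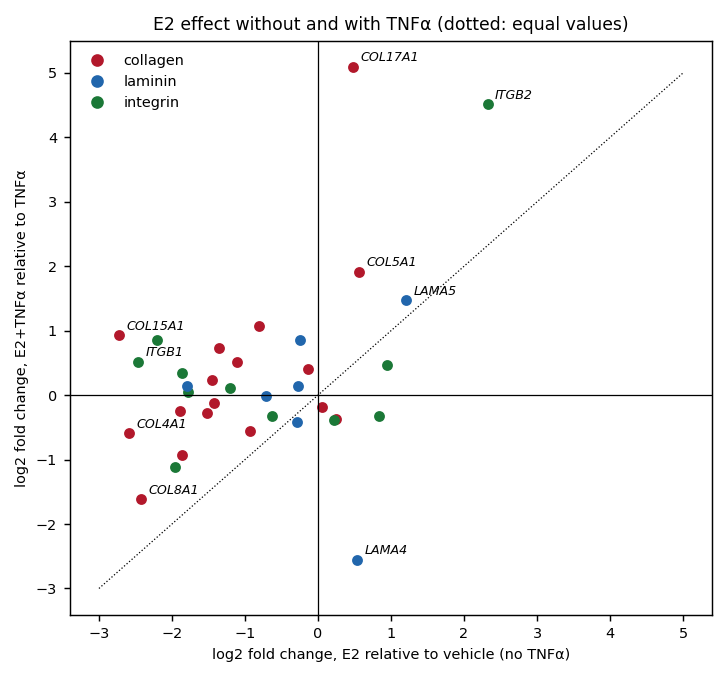
log2 fold change of E2 relative to vehicle (x axis) and of E2+ TNFα relative to TNFα (y axis) for 35 of the 36 tested members, colored by family, with a dotted line of equal values. COL17A1 lies far above the line and LAMA4 far below it.

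TNFα for 3 h without E2 called 1 member higher and 10 lower relative to vehicle, where 6.64% of all tested genes were called higher and 20.0% lower, and 30 members differed at any size (7 higher and 23 lower), where 81.9% of all genes did. The median was -0.86 over the members and 0.01 over all genes. LAMA4, which passed the filter through its TNFα libraries alone, rose by 3.19 ± 0.31 on the log2 scale (adjusted p = 3.7e-07, edgeR). It was the only member called higher, and a difference was built in by the filter. COL17A1 fell by 4.36 ± 0.23 (adjusted p = 1.1e-09, edgeR) and COL15A1, tested through vehicle alone and at 0.109, 0.110 and 0.0539 RPKM with TNFα, by 4.03 ± 0.37 (adjusted p = 2.4e-07, edgeR). Both were also called lower when detrended, as was COL7A1, the anchoring fibril collagen, from 4.37, 3.31 and 3.46 RPKM to 1.06, 0.989 and 1.23 RPKM (log2 fold change -1.57 ± 0.21, adjusted p = 7.9e-06, edgeR). ITGB2 was lower by 1.76 ± 0.28 (adjusted p = 4.6e-05, edgeR), in contrast to its rise with E2. LAMB3, an epithelial β chain, was higher by 0.89 ± 0.18 (adjusted p = 0.00034, edgeR), from 112, 93.4 and 95.9 RPKM to 172, 144 and 172 RPKM. ITGB5 (1.28 ± 0.14) and ITGA3 (0.74 ± 0.17), the β5 subunit of vitronectin receptors and the α3 subunit of a laminin receptor, were higher at any size. LAMA3, an epithelial α chain, went from 3.81, 4.04 and 3.71 RPKM to 1.17, 1.06 and 0.766 RPKM (-1.74 ± 0.19, and -1.48 when detrended, not called). Detrending kept 6 of these 11 calls, lost COL4A5, ITGA1, ITGAV, ITGB1 and LAMA3, and added COL1A1, COL4A2 and COL5A1, all lower. ITGA2 went from -0.67 to 1.32 with it, called in neither.

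E2+ TNFα relative to vehicle called 3 members higher and 11 lower, where 7.52% and 17.6% of all tested genes were called, and 32 differed at any size (11 higher and 21 lower), where 80.6% of all genes did. The median was -0.57 over the members and -0.03 over all tested genes. ITGB2 (2.75 ± 0.25) and LAMA5 (1.84 ± 0.21) were among those higher, and LAMA5 was not called when detrended (1.29). COL15A1 (-3.10 ± 0.35), COL8A1 (-2.07 ± 0.15) and COL4A1 (-2.05 ± 0.12) were the largest falls of the collagens, and all 3 were also called when detrended. COL15A1 and ITGB2 passed the filter only through groups where they are high, so their tests are not independent of it. Detrending kept 7 of these 14 calls, lost COL12A1, ITGA1, ITGA2, ITGAV, ITGB1 and LAMA3 beside LAMA5, and added COL1A1 and COL4A2, both lower. The 3 comparisons with vehicle share the vehicle libraries, so a gene that is low or high in all of them is one observation of vehicle.

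When TNFα was added to E2-treated cells, no member was called, where 0.389% of all tested genes were called higher and 0.0177% lower. At any size 2 members differed, LAMB3 (0.77 ± 0.18, adjusted p = 0.039, edgeR) and COL4A1 (0.53 ± 0.12, adjusted p = 0.038, edgeR), where 6.00% of all genes did, and 10 of 36 had an unadjusted p under 0.05, where 19.4% of all genes did. DESeq2 called 0 as well, and 4 differed at any size. The median was 0.27 over the members and 0.01 over all tested genes. LAMB3 was at 54.1, 68.6 and 68.3 RPKM with E2 and 96.2, 110 and 148 RPKM with E2+ TNFα, without overlap. COL4A1 was at 1.90, 2.03 and 2.19 RPKM with E2+ TNFα. COL17A1 (0.25 ± 0.19) and LAMA4 (0.10 ± 0.37) gave an adjusted p of 0.51 and 0.92 here (edgeR). In the absence of E2, both differed between TNFα and vehicle by more than 3 on the log2 scale. That difference was built in by the filter for LAMA4, and the part of the vehicle libraries in it was not tested.

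Whether the TNFα response differed with E2 was tested as the interaction of E2 and TNFα, a difference between the TNFα effect with E2 and that without. It called 15 members, 14 positive and 1 negative, where 22.5% and 9.29% of all tested genes were called, and 26 differed at any size, where 76.6% of all genes did. The median was 1.17 over the members and -0.01 over all tested genes. Since the vehicle libraries enter this contrast, a feature of vehicle alone appears in it with the opposite sign of its change in the vehicle comparisons. COL17A1 (4.61 ± 0.29, adjusted p = 3.1e-08), LAMA4 (-3.10 ± 0.48, adjusted p = 5.1e-05), COL15A1 (3.65 ± 0.55, adjusted p = 3.9e-05) and ITGB2 (2.19 ± 0.37, adjusted p = 0.00011) were called by edgeR and remained called when detrended, as did COL1A1, COL4A6, COL7A1, ITGB3 and LAMA3. ITGAV (3.06 ± 0.37), ITGB1 (2.97 ± 0.28), ITGA1 (2.20 ± 0.54), COL4A1 (1.99 ± 0.17), COL4A5 (1.87 ± 0.25) and COL12A1 (1.65 ± 0.25) were not. LAMA4, COL15A1, ITGA1, COL1A1 and ITGB2 passed the filter only through the groups where they are high, so their tests are not independent of it.

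The 3 most abundant integrin subunits were called in no comparison. ITGA3 was at 184, 161 and 160 RPKM with vehicle, 256, 216 and 262 RPKM with TNFα, 127, 172 and 157 RPKM with E2 and 158, 174 and 213 RPKM with E2+ TNFα. ITGA5, the α subunit of the fibronectin receptor, was at 74.8 to 86.1 RPKM with vehicle, 58.0 to 61.8 with TNFα, 35.5 to 43.7 with E2 and 43.5 to 50.9 with E2+ TNFα. ITGB5 was at 29.0 to 31.5 RPKM with vehicle, 58.7 to 69.2 with TNFα, 38.2 to 47.3 with E2 and 43.3 to 57.5 with E2+ TNFα, highest in the 3 TNFα libraries with no overlap with the other 9.

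Further members called in the interaction or relative to vehicle are given by the range of their 3 libraries. COL1A1, a fibrillar chain, was at 1.89 to 2.49 RPKM with vehicle, 0.639 to 1.01 with TNFα, 0.540 to 0.682 with E2 and 0.796 to 1.05 with E2+ TNFα. COL4A5, a basement membrane chain, was at 5.06 to 6.08 RPKM with vehicle, 1.48 to 1.59 with TNFα, 1.84 to 3.06 with E2 and 2.90 to 3.26 with E2+ TNFα, and COL4A6, which starts next to it on chromosome X in the opposite direction, at 2.08 to 2.19 RPKM with vehicle, 0.764 to 1.05 with TNFα, 0.551 to 1.03 with E2 and 1.11 to 1.42 with E2+ TNFα. Both were highest with vehicle and lowest, or overlapping the lowest, with TNFα. COL12A1, a fibril-associated collagen, was at 18.5 to 22.5 RPKM with vehicle, 5.91 to 6.66 with TNFα, 3.07 to 5.35 with E2 and 4.21 to 6.07 with E2+ TNFα. COL13A1, a transmembrane collagen, was at 35.8 to 38.9 RPKM with vehicle, 20.3 to 22.1 with TNFα, 7.08 to 8.98 with E2 and 9.93 to 11.99 with E2+ TNFα, so no 2 groups overlapped and E2 was lowest. ITGA2 was at 7.63 to 11.3 RPKM with vehicle, 4.59 to 5.59 with TNFα, 1.56 to 2.38 with E2 and 1.62 to 2.97 with E2+ TNFα, and ITGA1, the other α subunit of collagen receptors among the members, at 1.52 to 1.99 RPKM with vehicle, 0.226 to 0.727 with TNFα, 0.245 to 0.563 with E2 and 0.403 to 0.609 with E2+ TNFα. For each of these 7 genes, every vehicle library lay above all libraries of the other groups. This held for 21 of the 36 tested members (58.3%) and for 40.7% of all tested genes. The 7 were named for calls in comparisons that contain vehicle, so their number is not set against these shares. RPKM and CPM are per library total, without the scaling between libraries (TMM) used in the fits. The TMM factors were 1.14 to 1.16 for vehicle and 0.820 to 1.06 for the other groups. Unscaled levels therefore place vehicle higher, relative to the other groups, than the fits do.

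Chains of one heterotrimer or heterodimer moved unequally, which was read as the ratio of RPKM values within each library. LAMA3 stayed far below LAMB3 in every group, at 0.00444 to 0.0432 of its level. LAMC1 was at 33.2, 35.6 and 33.2 RPKM with vehicle and 16.5, 16.9 and 16.7 RPKM with TNFα, and it was at 29.8, 29.4 and 29.5 RPKM with E2+ TNFα. The ratio of LAMA5 to LAMB1 was 0.399 to 0.598 with vehicle, 0.779 to 0.981 with TNFα and 1.81 to 3.18 with E2+ TNFα, and its log2 value was 0.59 to 1.07 with E2. COL4A1 to COL4A2 was 0.169 to 0.219 with vehicle, 0.129 to 0.140 with TNFα, 0.0780 to 0.114 with E2 and 0.0916 to 0.122 with E2+ TNFα.

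**Figure D5:**
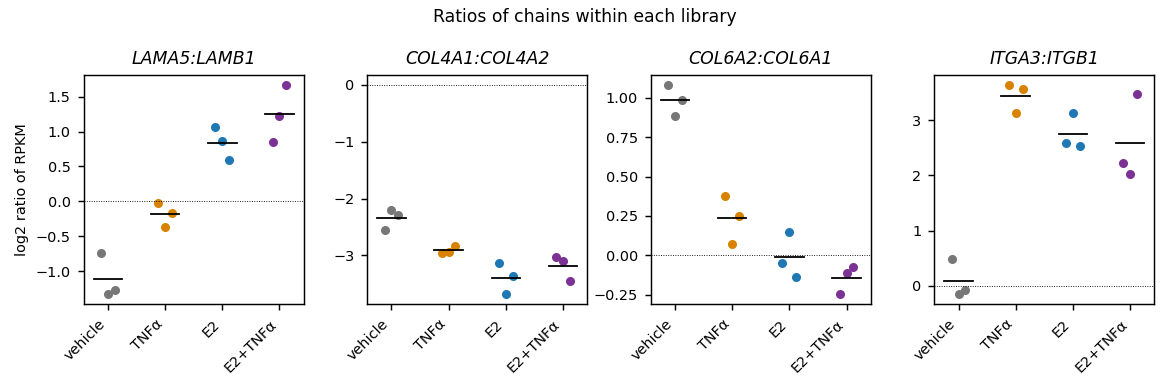
log2 ratio of RPKM within each library for 4 pairs of chains by group, with the group mean as a line (each panel has its own range). LAMA5:LAMB1 lies below 0 in the 6 libraries without E2 and above 0.5 in the 6 with E2, and COL6A2:COL6A1 is highest with vehicle.

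COL6A2 to COL6A1, chains of collagen VI on chromosome 21, was 1.85 to 2.12 with vehicle and 0.843 to 1.30 in the other 9 libraries. ITGA3 to ITGB1, subunits of the laminin receptor α3β1, was 0.904 to 1.396 with vehicle and 4.09 to 12.4 in the others. ITGB5 to ITGB1, alternative β partners of αV and not chains of 1 heterodimer, was 0.165 to 0.239 with vehicle and 1.10 to 3.36 in the others. Both ratios with ITGB1 set a gene of higher exon GC content (61.3% for ITGA3 and 55.4% for ITGB5) against ITGB1 (42.1%), the direction of the GC trend. Relative to vehicle, LAMA5 (66.4%) to LAMB1 (50.1%) and COL4A1 (48.9%) to COL4A2 (62.2%) also moved in that direction. The part of the GC trend in these 4 ratios was not tested. In the third E2+ TNFα library ITGB1 (19.2 RPKM) and ITGAV (2.296 RPKM) were lower than in the first (33.7 and 4.36 RPKM) and second (42.5 and 5.02 RPKM), while ITGA3 was highest there (213 RPKM, against 158 and 174 RPKM).

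The 6 members under the filter were COL16A1, COL1A2, COL4A4, COL5A2, COL6A3 and ITGB8. ITGB8, a subunit that activates latent TGFβ with αV, was at 0.120 to 0.167 RPKM with vehicle, 0.128 to 0.221 with TNFα, 0.312 to 0.781 with E2 and 0.900 to 1.47 with E2+ TNFα. In a fit without the filter its log2 fold change was 2.92 ± 0.31 for E2+ TNFα relative to TNFα and 2.21 ± 0.31 for E2 relative to vehicle, both called. COL1A2, COL5A2, COL6A3 and COL16A1 had their highest levels with vehicle, and COL4A4 did not exceed 0.201 RPKM in any library.

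Genes that make, crosslink or sense the matrix were read from 3 lists. Of 23 tested genes of collagen synthesis and crosslinking, 3 were called higher and 1 lower in E2+ TNFα relative to TNFα, among them the lysyl oxidases LOXL4 (5.93 ± 0.21) and LOX (2.33 ± 0.15), the lysyl hydroxylase PLOD2 (1.82 ± 0.21) and the prolyl hydroxylase family member P3H3 (-1.67 ± 0.27). Of 11 other matrix proteins, 3 were called higher and 1 lower, namely fibronectin FN1 (2.53 ± 0.17), ECM1 (1.97 ± 0.15), THBS2 (1.93 ± 0.13) and TGFBI (-1.502 ± 0.15). Of 28 adhesion complex genes and non-integrin matrix receptors, the focal adhesion tensin TNS4 (7.05 ± 0.22) and KANK1 (1.95 ± 0.18) were called higher and none lower. Over all tested genes, 3.55% were called higher and 2.01% lower. The medians of the 3 lists were -0.08, 0.17 and -0.01, beside 0.04 for all tested genes.

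For E2 relative to vehicle, 2 genes of collagen synthesis and crosslinking were called higher and 3 lower, with LOXL4 at 7.09 ± 0.22, MIA3, a collagen export factor, at -2.85 ± 0.20, PLOD2 at -2.37 ± 0.21 and P4HA1 at -1.71 ± 0.23. Of the other matrix proteins 1 was higher and 3 lower (THBS2 2.09 ± 0.13, EFEMP2 -2.08 ± 0.37, FBN1 -1.74 ± 0.17 and HSPG2 -1.54 ± 0.18). Of the adhesion list 2 were higher and 2 lower, TNS4 at 8.63 ± 0.23 and the syndecan SDC4 at 2.22 ± 0.11, and FERMT2 at -2.61 ± 0.20 and the focal adhesion kinase gene PTK2 at -2.05 ± 0.16. Over all tested genes, 9.87% were called higher and 20.6% lower with E2, and the lists were not tested against these shares. TNFα relative to vehicle called PLOD2 (-4.00 ± 0.23), LOX (-3.42 ± 0.16), MIA3 (-2.13 ± 0.19) and P4HA1 (-2.08 ± 0.23) lower and 2 of the synthesis list higher, EFEMP2 (-1.63 ± 0.30) lower among the other matrix proteins, and SDC4 (2.93 ± 0.11) higher and FERMT2 (-1.68 ± 0.18) and PTK2 (-1.61 ± 0.16) lower in the adhesion list. Over all tested genes, 6.64% were called higher and 20.0% lower with TNFα. Detrended values of the listed genes are not given here. For those that move with GC content, treatment and library cannot be told apart in the comparisons with vehicle. In E2+ TNFα relative to E2, 0 genes of the 3 lists were called by edgeR, with 1 of 23, 4 of 11 and 4 of 28 at an unadjusted p under 0.05, where 19.4% of all tested genes were.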

How the data were processed

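Cells were plated in triplicate, and mRNA libraries that keep strand were sequenced as 50 base paired-end reads. The counts, as deposited, are whole numbers of reads per gene from featureCounts, run by the authors after alignment with TopHat2 2.1.0 to hg38, without normalization. The study's RUVseq correction is not in them. The strand setting of the counting is not given in the sources used here.

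Of 12567 rows, 46 exact repeats were dropped, and so were 70 that gave a locus and its counts under a second symbol. RPKM was computed from counts, summed exon lengths and library totals, and CPM from counts and library totals, both without TMM scaling. A gene was tested where it reached an RPKM of 1 in 3 or more libraries (11303 genes). After TMM scaling, the quasi-likelihood F test (edgeR 4.0.16, R 4.3.3) was applied in 1 fit of 4 group means over 12 libraries, with Benjamini-Hochberg adjustment over all tested genes. The thresholds (log2 fold change 1.5, p 0.05, adjusted p 0.1) are those of the study. Errors of fold changes are standard errors. The fit was tried on simulated counts for E2+ TNFα relative to TNFα alone, with the quasi-likelihood, DESeq2 and likelihood ratio tests. Detrending, the replicate block, the unwanted factor and the other comparisons were not tried on simulated data.

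The alternatives were DESeq2 1.42.0 (its size factors, or its test), library size only, no filter, a minimum of 10 counts throughout, a block for the replicate number, an unwanted factor computed from 20 housekeeping genes, edgeR's likelihood ratio test, fits of the compared groups alone, omission of each library, and detrending, in which a loess curve (span 0.3) of each library's values on exon GC content and on length was subtracted. The members, the gene lists and the detrending were chosen with earlier results of these data known.

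Members named with values are the 3 of highest median RPKM in each family, those called in E2+ TNFα relative to TNFα or to E2 or in the interaction, and the 3 largest called rises and falls of each family in each comparison with vehicle. Partner chains were named beside them, and at most 4 called genes of each other list in a comparison. ITGB8 was named after its values were seen. Results of 1 member, which is part of the counts and medians, are not reported here. Library totals were 7.65 M to 39.9 M reads, so counting error is small except for genes of few reads. Other experiments of the study were not analysed here.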

Additional observations from a re-analysis of the deposited data

Results flagged for a closer look

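The TNFα response with E2 differed from that without E2 by the interaction test of edgeR for 15 members, 14 of them positive, where 22.5% of all tested genes were called positive and 9.29% negative. Among collagens the log2 differences were 4.61 for COL17A1, 3.65 for COL15A1, 2.09 for COL7A1, 1.99 for COL4A1, 1.87 for COL4A5, 1.68 for COL1A1, 1.65 for COL12A1 and 1.62 for COL4A6. Among laminins they were 1.93 for LAMA3 and -3.10 for LAMA4, and among integrins 3.06 for ITGAV, 2.97 for ITGB1, 2.20 for ITGA1, 2.19 for ITGB2 and 1.82 for ITGB3. Detrending kept 9 of the 15 and added 6 other members. The interaction contains the vehicle libraries, which stood apart from the other 9, and their part in it was not tested.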

How the results depend on the processing

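Alternatives gave 1610 values for 91 single-member results. Of these, 1526 kept direction and side of the thresholds, 54 fell under them, 11 passed them and 19 changed sign. In both comparisons without vehicle libraries, 386 of 389 values kept direction and side, 3 passed the thresholds (LAMA5 each time, with a library left out) and 0 changed sign. The sign changes counted here came with detrending. ITGA2 for TNFα, given above, also changed sign when detrended and is not in this count. For E2 relative to vehicle, detrended values without and with the replicate block were 0.15 and 0.067 for ITGA1, 0.17 and 0.17 for ITGA2, 0.31 and 0.30 for ITGA6 and 0.12 and 0.13 for ITGAV. For TNFα they were 0.10 and 0.036 for ITGA1 and 0.25 and 0.25 for ITGA6, for E2+ TNFα 0.23 and 0.20 for ITGA1, 0.26 and 0.26 for ITGA6 and 0.18 and 0.19 for ITGAV, and for the interaction -0.010 for ITGA1 without the block. The cause was not tested.

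Called members of E2+ TNFα relative to vehicle numbered 9 when detrended, with or without the block, in place of 14. Members that differed by adjusted p alone between E2+ TNFα and E2 (2) numbered 8 with library size only, 4 with a minimum of 10 counts, 0 with the unwanted factor, 4 with DESeq2, 4 with the likelihood ratio test, 1 with the compared groups only, 8 when detrended, 6 when detrended with the block, and 0 to 5 with a library left out. Between E2+ TNFα and TNFα they numbered 14 to 23 with a library left out in place of 22, with 14 without the first TNFα library. With a library left out, called members numbered 13 to 15 for E2, 11 to 12 for TNFα and 12 to 14 for both against vehicle, 6 to 7 and 0 for E2+ TNFα against TNFα and against E2, and 13 to 15 in the interaction. Library size only moved the median of all tested genes by over 0.1, to -0.38, -0.19 and -0.26 relative to vehicle, 0.13 between E2+ TNFα and E2 and 0.31 in the interaction. Over all alternatives and comparisons, 4 values of the members' median moved by more than the median standard error of the members.

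Same-numbered libraries of different groups did not deviate together more than others (r from -0.48 to 0.47, against -0.55 to 0.66 for different numbers). With 3 libraries in each group this cannot show whether the numbers pair the samples. With the replicate block 14, 11, 14, 6, 0 and 15 members were called in the same order, the numbers found without it. Genes of few reads, such as LAMA4 and ITGB2, are limited by depth.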
